A study of Mus musculus with 21 samples.

Results

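The genes described here are 5 that mark cortical inhibitory interneurons, Gad1, Gad2, Calb1, Pvalb and Sst, all 5 of which were found by their GENCODE mouse symbol among the 5544 Ensembl genes of the deposited table. They were compared between the cortices of sham mice (n = 10) and of mice given high-frequency head impact (HF-HI, n = 11), with 1 RNA-seq library for each mouse. The labels describe all animals as male C57BL/6 mice aged 12 weeks, with the tissue taken 24 h after the final impact. The column names of all libraries carry WT, for wild type. HF-HI mice received daily series of closed-head impacts under isoflurane, and sham mice received the same handling and anesthesia without an impact, so that repeated anesthesia was common to both groups. RNA came from dissected cortex as a whole, in which fewer cells of a type and less RNA per cell cannot be told apart.

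Inhibitory interneurons release GABA, the main inhibitory transmitter of the adult brain, onto the cell bodies, axons and dendrites of cortical pyramidal neurons. Gad1 and Gad2 encode the glutamic acid decarboxylases GAD67 and GAD65, which make GABA from glutamate and are shared by all GABAergic neurons. Pvalb and Sst mark separate subclasses, namely the fast-spiking cells that target the cell body and the cells that target dendrites. Pvalb and Calb1 encode calcium-buffering proteins, parvalbumin and calbindin, and Sst encodes the neuropeptide somatostatin. None of these genes is restricted to cortical interneurons. The projection neurons of the striatum, which lies directly under the cortex, also express the glutamic acid decarboxylases, and many of them and the pyramidal cells of the upper layers express Calb1.

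In GRCm38 coordinates, Gad1 lies at chr2:70553072-70602014 and Gad2 at chr2:22622205-22693874, both on the plus strand. Calb1 is at chr4:15881264-15908064 on the plus strand, Pvalb at chr15:78191114-78206400 on the minus strand and Sst at chr16:23889573-23890958 on the minus strand. All are annotated as protein-coding. They differ widely in base composition, with an exonic GC content of 36.5% for Calb1, 44.3% for Gad2, 47.6% for Gad1, 49.8% for Pvalb and 56.0% for Sst, against a median of 47.6% over the table. Calb1 is thus among the 0.993% of genes with the lowest GC content, whereas Sst is at the 88.5th percentile.

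The Sst promoter is the textbook case of a cyclic AMP response element (CRE), the palindrome TGACGTCA to which the activity-dependent factor CREB binds. The promoter stretches from base -58 to base -29, counted from the RefSeq transcript start at +1 with no base 0, are shown because the difference of Sst is the one the comparison turns on. They are RefSeq sequences of GRCm38.p6, given 5′ to 3′ on the strand of the gene, and capitals mark TGACGTCA or its parts TGACG and CGTCA.
Sst, chr16:23890873-23890902, minus strand: cctccttggcTGACGTCAgagagagagttt
Gad1, chr2:70562071-70562100, plus strand: agcaacggcctcgtgattccccccgccgag
Gad2, chr2:22622269-22622298, plus strand: cgacccagcgcctccatttcccttcCGTCA
Pvalb, outer start, chr15:78206429-78206458, minus strand: ctcccaaaatagccagggctgtagactatt
Pvalb, inner start, chr15:78204266-78204295, minus strand: gctgagccgggcgccccctggcgcggagcc

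Of the 5 RefSeq windows found for 4 of the genes (Calb1 had no entry), 1 held TGACGTCA, that of Sst, at -48 to -41. The RefSeq starts of Sst, Gad1 and Gad2 and the inner start of Pvalb lie inside the genes as GENCODE draws them. The stretches shown for these starts therefore fall in the annotated genes, and only that of the outer Pvalb start lies upstream. Gad2 held the shorter CGTCA at -33 to -29. Over all 32851 RefSeq promoter windows, 1.55% held TGACGTCA and 17.8% held TGACG or CGTCA within the 250 bases upstream of the start. Of the 4329 tested genes with a window, 164 held TGACGTCA, and 28.7% were higher in HF-HI and 38.4% were lower, where 32.7% and 33.5% of all 4329 were. A match of letters is a description and was not tested as a binding site.

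The deposited values are variance-stabilized counts on a log2 scale, normalized by the authors for library size, and group means are given with the SD. The total number of reads is unknown. Relative depth, estimated from the spacing between neighbouring values and set to 1 in the median library, ran from 0.580 to 1.26 in sham and from 0.548 to 1.64 in HF-HI (p = 0.104, two-sided permutation test of its log2). The libraries differed in how their values depended on GC content. The slope ran from -0.23 to 0.0058 log2 units per 10% GC in sham and from -0.039 to 0.16 in HF-HI (permutation test, two-sided, p = 2e-05). Each gene was tested with limma, and it was called past the threshold at a Benjamini-Hochberg adjusted p under 0.05 over all 5544 genes. By that rule 66.3% of all genes passed, 32.6% higher and 33.6% lower in HF-HI, and for 13.5% of genes the groups did not overlap. Against this broad background 1 of the 5 interneuron genes was higher, 0 were lower and 4 did not pass, and 0 of the 5 were without overlap. The same count of 1 higher and 0 lower was found with the GC trend of each library removed, where 26.7% of all genes were higher and 34.5% lower. With each library centred on its median, 26.1% of all genes were higher and 42.9% lower, and 2 of the 5 genes, Gad1 and Calb1, were then among the lower ones. That centring moved the median difference of all genes from -0.0086 to -0.061.

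**Figure D1:**
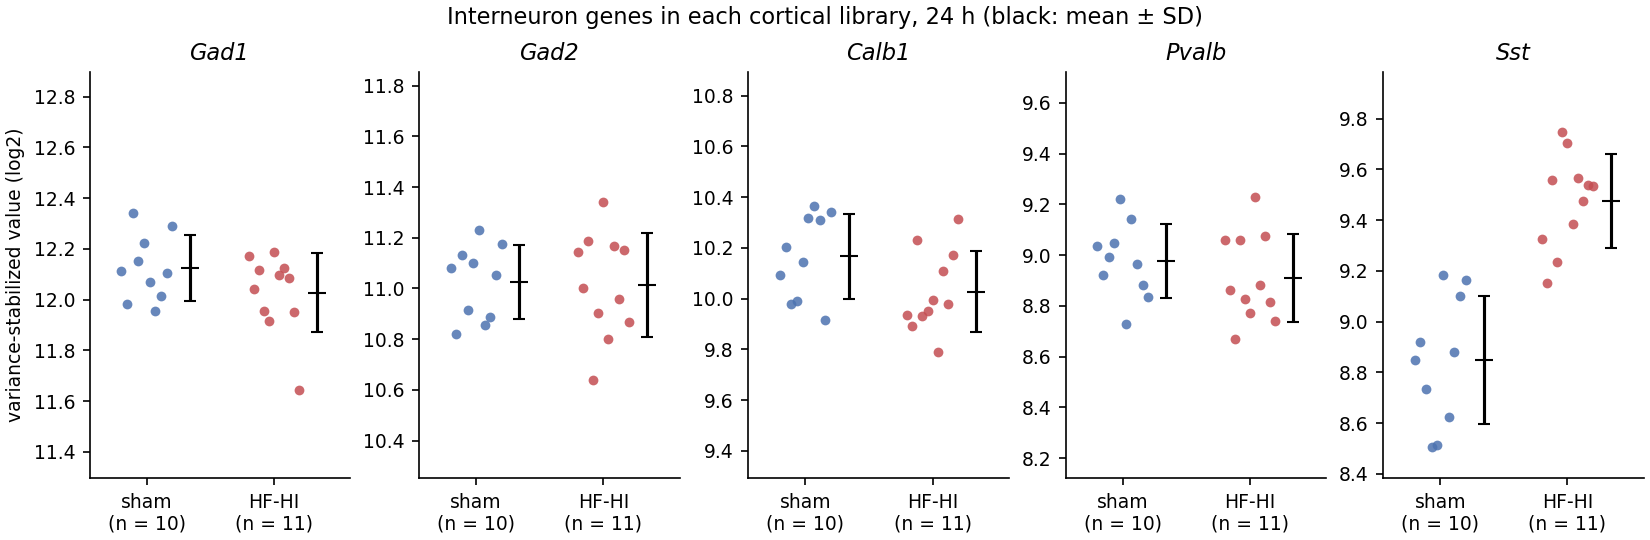
Variance-stabilized log2 value of each interneuron gene in each sham (blue, n = 10) and HF-HI (red, n = 11) library, with the group mean and SD in black; every panel spans the same number of log2 units and points are spread sideways for clarity. The Sst values of 10 of the 11 HF-HI libraries lie above all sham values, while the groups of the other 4 genes overlap more widely.

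Neither enzyme of GABA synthesis passed. For Gad1 the sham values ran from 11.95 to 12.34 with a median of 12.11, and the HF-HI values from 11.64 to 12.19 with a median of 12.08. The groups overlapped, and the lowest value by far was that of HF-HI replicate 9, since the next HF-HI library was at 11.92. HF-HI mice averaged 12.03 ± 0.16 (SD, n = 11) against 12.12 ± 0.13 (SD, n = 10) for sham mice, so that the log2 difference was -0.097 with a standard error of 0.0592 (adjusted p = 0.149 from limma), with 7 of 11 HF-HI libraries below the sham median. The difference was -0.059 without HF-HI replicate 9. It passed the threshold under 3 alternatives, with library medians centred (-0.15, adjusted p = 0.0257 from limma), with GC and length trends removed (-0.14, adjusted p = 0.0320) and with relative depth as a covariate (-0.14, adjusted p = 0.0401).

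Gad2, whose product is enriched at synaptic terminals, had nearly the same mean in both groups. Sham values ran from 10.82 to 11.23 with a median of 11.07, and HF-HI values from 10.64 to 11.34 with a median of 11.0015. The HF-HI range enclosed the sham range, with replicate 2 lowest and replicate 4 highest. The log2 difference was -0.010 (95% interval -0.16 to 0.14, adjusted p = 0.906 from limma), and 5 of 11 HF-HI libraries lay above the sham median. Its sign changed to 0.032 with the GC trend removed, and in neither case did it pass. The spread of Gad2 in HF-HI was wide, as was that of the other interneuron genes. Its SD within HF-HI was 0.20, at least that of 95.9% of all genes. That share was 89.3% for Gad1, 90.1% for Calb1, 92.6% for Pvalb and 94.3% for Sst. The SD of Gad2 in HF-HI was 1.41 times its SD in sham, where the median ratio over the table was 0.839. This difference in spread was not tested.

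Calb1 was not past the threshold and its call moved with the processing. Sham values ran from 9.92 to 10.37 with a median of 10.17, and HF-HI values from 9.79 to 10.32 with a median of 9.98. HF-HI libraries therefore lay lower for the most part, with 9 of 11 below the sham median, but the highest of them, replicate 9, was within the sham range. The log2 difference was -0.14 (95% interval -0.28 to -0.0015, unadjusted p = 0.0477 and adjusted p = 0.0691 from limma). It passed with the replicate number as a block (-0.16, adjusted p = 0.0363 from limma), with library medians centred (-0.19, adjusted p = 0.0157) and with quantile normalization (-0.18, adjusted p = 0.0219). It was -0.026 after removal of the GC trend (adjusted p = 0.705 from limma). Within HF-HI, Calb1 went with the GC slope of the libraries at r = -0.84 (permutation p = 0.00092, adjusted p = 0.0552 over 60 relations) and rho = -0.65 (permutation p = 0.0365, adjusted p = 0.313), and at r = -0.52 without the 2 farthest libraries. The part of GC content in the difference of Calb1 was not tested further.

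The parvalbumin gene Pvalb did not pass the threshold. Its sham values ran from 8.73 to 9.22 with a median of 8.98, and its HF-HI values from 8.67 to 9.23 with a median of 8.86. Each group covered almost the whole range of the other. The log2 difference was -0.069 (95% interval -0.21 to 0.068, adjusted p = 0.369 from limma), with 7 of 11 HF-HI libraries below the sham median. It was -0.13 with the GC trend removed (95% interval -0.27 to 0.0044, adjusted p = 0.0866 from limma). With library medians centred and with relative depth as a covariate it was -0.12, and with GC and length trends removed -0.020. No alternative that gave a value took Pvalb past the threshold.

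Sst was the interneuron gene that rose. Its sham values ran from 8.50 to 9.18 with a median of 8.86, and its HF-HI values from 9.15 to 9.75 with a median of 9.54. Every HF-HI library was above the sham median, and 10 of 11 were above all sham libraries. The exception was HF-HI replicate 10 at 9.15, which lay below sham replicates 5 and 9 at 9.18 and 9.16. HF-HI mice averaged 9.47 ± 0.18 (SD, n = 11) against 8.85 ± 0.25 (SD, n = 10) for sham mice, so that the log2 difference was 0.63 with a standard error of 0.0884 (adjusted p = 2.18e-06 from limma). This corresponds to a ratio of 1.54 on the variance-stabilized scale, with a 95% interval from 1.36 to 1.75. Only 2.96% of all genes had a difference as large and upward, and Sst ranked at 164 among 5544 genes. The difference passed under every alternative that was run and lay between 0.41 and 0.65, and between 0.59 and 0.66 with any 1 library left out. Its lowest values came with the GC trend removed, 0.42 without and 0.41 with the replicate block, beside the GC-rich exons of Sst.

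**Figure D2:**
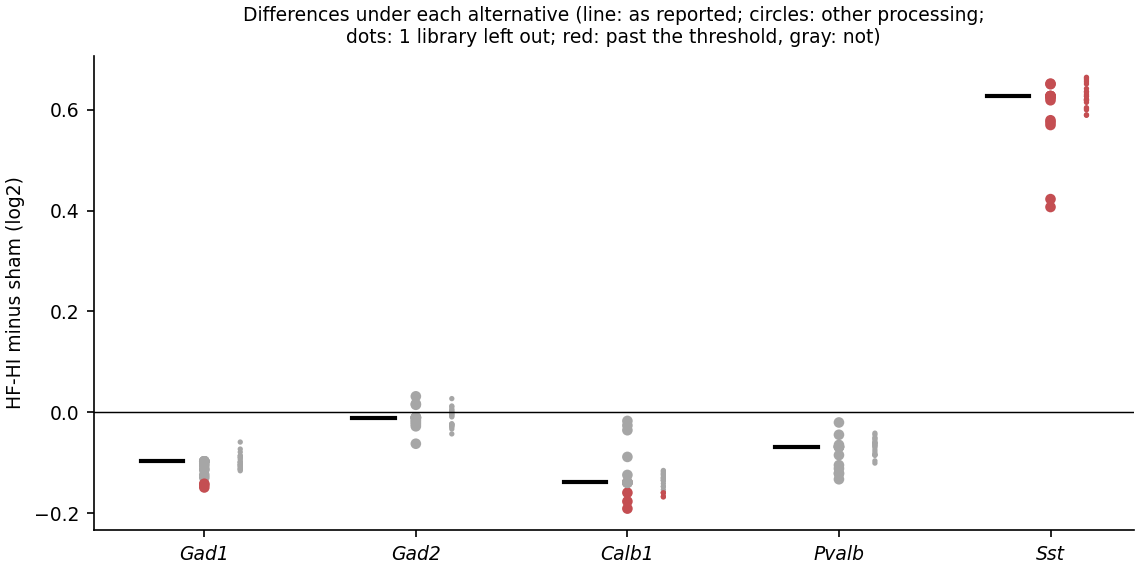
Log2 difference between HF-HI and sham for each interneuron gene as reported (black line), under other processing (circles) and with 1 library left out (dots), in red where past the threshold and in gray where not. Sst is red throughout, Gad1 and Calb1 are red under some alternatives, and Gad2 lies on both sides of 0.

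Excitatory neurons are the majority of cortical neurons, and their markers moved along with Sst. Of 24 listed excitatory markers 20 were tested, 11 were higher and 1 lower, and their mean deviation ran from -0.22 to -0.052 in sham and from 0.084 to 0.22 in HF-HI, without overlap (difference 0.28, p = 1e-05 in a two-sided permutation test, the lowest value 100000 resamples allow). The defining marker Slc17a7, the vesicular glutamate transporter of cortical pyramidal cells, averaged 13.24 ± 0.10 (SD, n = 11) with HF-HI against 12.35 ± 0.18 (SD, n = 10) without. The labelled tissue thus held the RNA of cortical excitatory neurons in both groups. Within sham, Sst and the excitatory mean had r = 0.23 (permutation p = 0.53). Within HF-HI they had r = 0.62 (permutation p = 0.0424, adjusted p = 0.231 over 60 relations), and r = 0.18 without the 2 farthest libraries. The part of the excitatory shift in the difference of Sst was not tested. For this list and those below, the shares over all genes are 32.6% higher and 33.6% lower.

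On a plain log2 scale, a difference between 2 genes of one library does not depend on how that library was scaled. On the variance-stabilized scale, which compresses genes with few reads, this holds only in part. Such differences were also taken, to be compared between groups and not as levels. Gad2 minus Sst was 2.18 ± 0.23 log2 units (SD, n = 10) in sham, with a range from 1.90 to 2.59. It was 1.54 ± 0.21 (SD, n = 11) in HF-HI, with a range from 1.16 to 1.85. The groups did not overlap. Calb1 minus Sst was 1.32 ± 0.27 (SD, n = 10) in sham against 0.55 ± 0.19 (SD, n = 11) in HF-HI, again without overlap, with a lowest sham value of 0.82 and a highest HF-HI value of 0.78. Pvalb minus Sst was 0.13 ± 0.39 (SD, n = 10) in sham against -0.57 ± 0.31 (SD, n = 11) in HF-HI, where 6 of 11 libraries were below all sham libraries. Gad1 minus Gad2 was 1.1 ± 0.11 (SD, n = 10) in sham against 1.01 ± 0.18 (SD, n = 11) in HF-HI, and the ranges overlapped. Gad1 minus Sst was 3.28 ± 0.29 (SD, n = 10) in sham against 2.55 ± 0.25 (SD, n = 11) in HF-HI, and the groups overlapped. They also overlapped in every pair without Sst. Each difference with Sst contains the rise of Sst itself, and the share of all gene pairs without overlap was not computed. These differences are descriptions and carry no test. Once the GC trend was removed, the group difference of Gad2 minus Sst went from -0.64 to -0.39. For Calb1 and Sst, the interneuron genes of lowest and highest GC content, the single differences were then -0.026 and 0.42.

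Levels were set side by side only per kilobase of exon, over the union of the GENCODE exons of each gene. On that log2 scale the order in sham was Sst at 9.32, Gad1 at 9.19, Pvalb at 8.92, Gad2 at 8.47 and Calb1 at 7.89. The order was the same in HF-HI, with Sst at 9.95, Gad1 at 9.09, Pvalb at 8.85, Gad2 at 8.46 and Calb1 at 7.75. In sham the ranges of Sst and Gad1, of Gad1 and Pvalb and of Pvalb and Gad2 overlapped, and those of Gad2 and Calb1 did not. In HF-HI the range of Sst, from 9.63 to 10.22, lay clear of that of Gad1, from 8.71 to 9.25. A gene whose annotated exons are only partly used in cortex is set too low by this measure. Variance stabilization lifts the values of genes with few reads, which are set too high by it. Pvalb and Sst have the shortest exons of the interneuron genes, at 1041 and 721 bases. They also have the lowest mean values, at percentiles 20.6 and 29.8 of the table. Their place in the order, that of Sst above Gad1 included, may therefore be too high.

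To place the 5 genes in their pathway, the genes that make, package, take up and break down GABA were examined. Of 16 listed genes 12 were tested, 5 were higher, 2 lower and 5 not past the threshold, where 32.6% of all genes were higher and 33.6% lower. The median log2 difference was 0.060, against -0.0086 over all genes. Among the higher genes were the transporter genes Slc38a1, Slc32a1 and Slc6a11 and the enzyme gene Glul. The vesicular GABA transporter gene Slc32a1, which loads GABA into synaptic vesicles, averaged 9.22 ± 0.22 (SD, n = 11) with HF-HI against 8.59 ± 0.22 (SD, n = 10) without, a difference of 0.64 (adjusted p = 1.5e-06 from limma). The glutamine transporter gene Slc38a1, which supplies the precursor, had the largest difference of the list at 0.78 (adjusted p = 1.89e-10 from limma) and no overlap between groups. The astrocytic GABA uptake transporter gene Slc6a11 (GAT-3) was higher by 0.62 (adjusted p = 2.81e-07 from limma).

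Enzymes of glutamate metabolism went both ways. Glul, the astrocytic glutamine synthetase, was higher by 0.17 (adjusted p = 1.28e-05 from limma). The glutamate dehydrogenase gene Glud1 fell by 0.29 (adjusted p = 5.18e-06 from limma). The GABA breakdown enzymes Abat, with a difference of 0.020, and Aldh5a1, with 0.040, and the transporter Slc38a2, with 0.079, did not pass. The list again had 5 higher and 2 lower genes after removal of the GC trend, now with Slc32a1 at 0.26, Slc38a1 at 0.78 and Slc6a11 at 0.46. Slc38a2 then passed as well, at 0.13 (adjusted p = 0.0440 from limma). Some of these genes are largely astrocytic, and of 15 listed astrocyte markers 13 were tested, 5 were higher and 4 lower, and with the GC trend removed 4 were higher and 7 lower, with a median of -0.11. As deposited, their mean deviation ran from -0.10 to 0.060 in sham and from -0.049 to 0.11 in HF-HI (difference 0.055, permutation test, two-sided, p = 0.0227), and the part of that shift in the list was not tested.

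Among markers of interneuron subclasses, 10 of 25 listed genes were tested, 4 were higher, 1 lower and 5 not past the threshold, with a median log2 difference of 0.044. Over all genes the shares were 32.6% higher and 33.6% lower. Besides Sst the higher genes were Npy, Lamp5 and Syt2. Npy, the neuropeptide Y gene, found together with Sst in part of the dendrite-targeting cells, averaged 8.78 ± 0.14 (SD, n = 11) with HF-HI against 8.29 ± 0.22 (SD, n = 10) without, a difference of 0.48 with no overlap (adjusted p = 8.23e-06 from limma). Lamp5, a marker of neurogliaform cells that pyramidal cells express too, was higher by 0.40 (adjusted p = 0.00114 from limma), and Syt2, the synaptotagmin of parvalbumin terminals, by 0.36 (adjusted p = 4.9e-06). The cannabinoid receptor gene Cnr1, abundant in the basket cells that express cholecystokinin, fell by 0.19 (adjusted p = 0.00884 from limma). The peptide genes Cck, with a difference of -0.016, and Penk, with 0.10, and the reelin gene Reln, with -0.090, did not pass, nor did Calb1 and Pvalb. Vip, Calb2 and other listed markers of the remaining subclasses were not found among the 5544 genes of the table and so were not tested. The same holds for the untested genes of the other lists, and shares of all genes refer to those 5544 only. Npy was at 0.33, Lamp5 at 0.31, Syt2 at 0.25 and Cnr1 at -0.15 after removal of the GC trend, all past the threshold. Cck was then lower too, at -0.23 (adjusted p = 0.0488 from limma).

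Of 22 listed transcription factors of interneuron development 5 were tested, 3 were higher, 1 lower and 1 not past the threshold. The shares over all genes were 32.6% higher and 33.6% lower. Satb1, needed for the maturation of cells that express Sst, was higher by 0.40 (adjusted p = 7.64e-06 from limma), Id2 by 0.14 (adjusted p = 0.0125) and Zeb2 by 0.13 (adjusted p = 0.00417). The noncoding RNA gene Dlx6os1, transcribed antisense to the Dlx6 gene, fell by 0.21 (adjusted p = 0.00101 from limma), and by 0.094 with the GC trend removed, where it no longer passed (adjusted p = 0.0699). The labels name a stranded library kit, but the strand setting of the counting is not given in the sources used here. Nr2f1 was at 0.084 and did not pass. Satb1 and Zeb2 are also expressed outside interneurons.

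**Figure D3:**
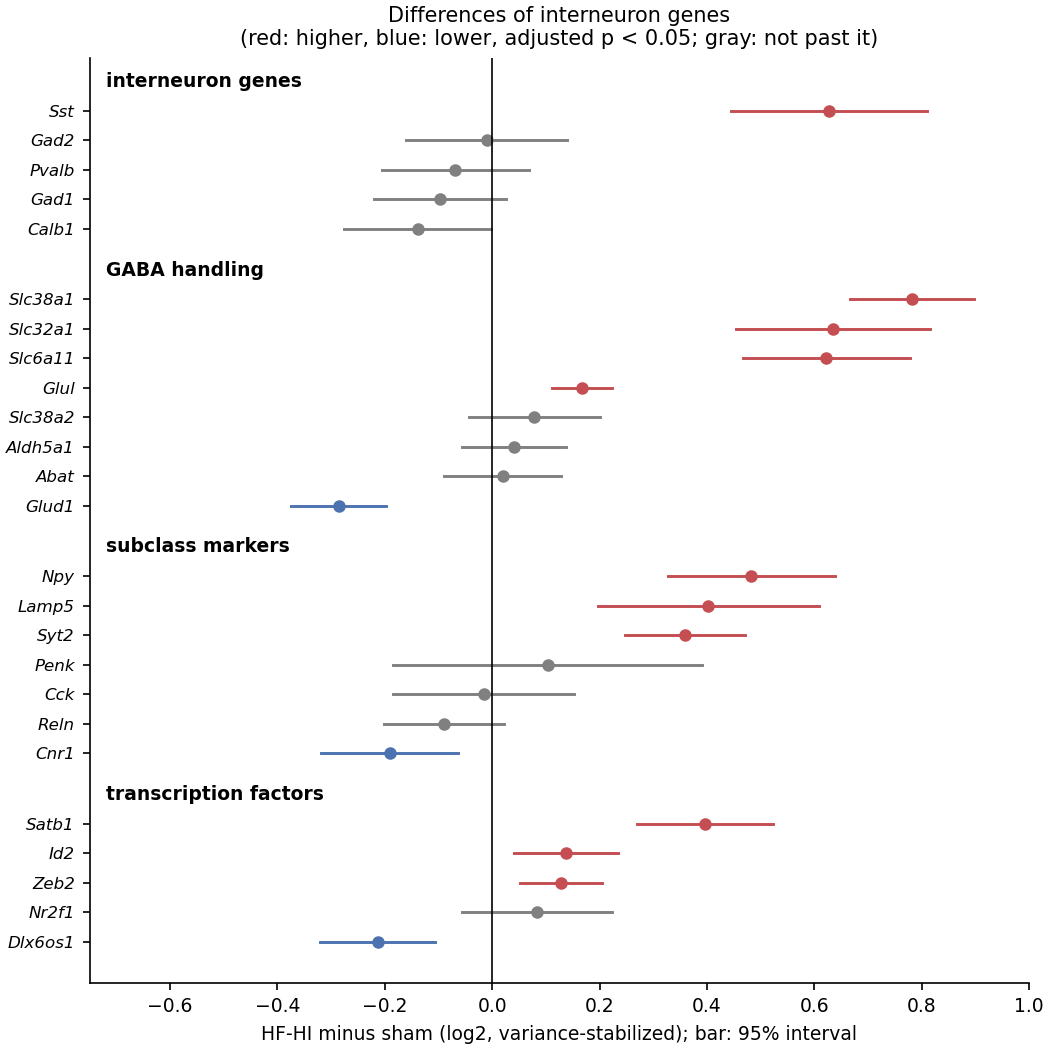
Log2 difference between HF-HI and sham with its 95% interval for the 5 interneuron genes and for genes of the lists of GABA handling, subclass markers and transcription factors. Genes past the threshold are red when higher and blue when lower in HF-HI, and Slc38a1, Slc32a1, Sst and Slc6a11 have the largest differences, between 0.62 and 0.78.

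The partners of fast-spiking parvalbumin cells held genes of both directions, as did the table as a whole, with 32.6% higher and 33.6% lower. Of 27 listed genes 19 were tested, 7 were higher, 6 lower and 6 not past the threshold, with a median of 0.084. Hapln4, a link protein of the perineuronal nets around these cells, had the largest difference at 0.94 (adjusted p = 1.24e-10 from limma) without overlap. Nefh, the heavy neurofilament gene, was higher by 0.48, Kcnc1, the Kv3.1 potassium channel that permits fast firing, by 0.43, and the complexin gene Cplx1 by 0.41 (adjusted p between 1.97e-07 and 8.28e-06 from limma). Among the lower genes the difference was largest for the AMPA receptor subunit gene Gria4, which fell by 0.20 (adjusted p = 1.88e-05 from limma). After removal of the GC trend 5 genes of the list were higher and 5 lower, with Hapln4 at 0.69, Kcnc1 at 0.23, Cplx1 at 0.21 and Nefh at 0.20, all past the threshold.

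On the receiving side, 15 of 18 listed genes of the inhibitory postsynapse were tested, 9 were higher, 5 lower and 1 not past the threshold, with a median of 0.16. Beside this, 32.6% of all genes were higher and 33.6% lower. The adhesion molecule gene Igsf9b was higher by 0.55, Iqsec3 by 0.52 and the neuroligin gene Nlgn2 by 0.44 (adjusted p = 3.55e-07, 1.21e-06 and 1.42e-04 from limma). Gphn, which encodes gephyrin, the scaffold that holds GABA-A and glycine receptors at these synapses, fell by 0.21 (adjusted p = 1.36e-05 from limma). The list had 6 higher and 4 lower genes after removal of the GC trend, with a median of 0.045. Igsf9b was then at 0.46 and Iqsec3 at 0.37, both past the threshold, whereas Nlgn2 was at 0.097 and no longer passed (adjusted p = 0.194 from limma). Insyn1, named after its values were seen, turned from higher at 0.28 to lower at -0.10, past the threshold in both fits (adjusted p = 1.09e-04 and 0.00954 from limma).

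Covariation across mice was examined within each group, because the groups differ in most genes and a pooled correlation would mainly restate that. The 10 pairs of interneuron genes gave 20 correlations over both groups, and p-values from permutation tests (100000 resamples, two-sided) were adjusted over these 20. In 6 of the 20 the size of r was at least 0.5. The sole correlation past the threshold was a negative one. Within sham, Pvalb and Sst had r = -0.91 (permutation p = 0.00019, adjusted p = 0.0038) and rho = -0.95 (permutation p = 7e-05, adjusted p = 0.0014). Sham replicates 5 and 9 combined low Pvalb, at 8.73 and 8.83, with high Sst, at 9.18 and 9.16, and replicate 4 had the highest Pvalb at 9.22 with Sst at 8.51. Among all other genes, 99.7% had a higher correlation with Pvalb in sham than Sst had.

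This relation did not rest on a single sham library, since r lay between -0.96 and -0.89 with each left out in turn. It was -0.88 without the 2 libraries farthest from the median of Pvalb, where with 8 libraries the adjusted p was 0.0946 from the permutation test. It was -0.88 with the GC trend removed and -0.92 with library medians centred. In HF-HI the correlation of Pvalb and Sst had the same sign but did not pass, with r = -0.52 (permutation p = 0.104, adjusted p = 0.347) and rho = -0.53 (permutation p = 0.1, adjusted p = 0.286), and with r = -0.61 without the 2 farthest libraries. Whether the correlation differs between sham and HF-HI was not tested.

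**Figure D4:**
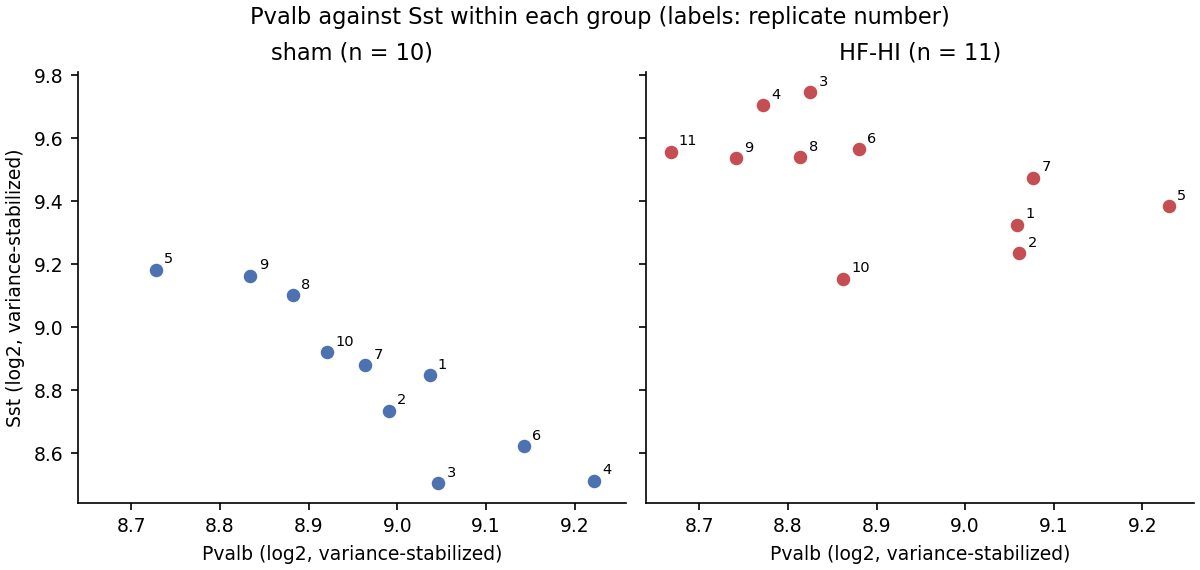
Pvalb against Sst, both as variance-stabilized log2 values, in sham (left) and HF-HI (right), each point a library labelled with its replicate number. The sham points fall along a descending line from replicate 5 to replicate 4 (r = -0.91), and the HF-HI points lie higher on the Sst axis and scatter more (r = -0.52).

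In HF-HI, Calb1 and Pvalb had r = -0.76 (permutation p = 0.00706, adjusted p = 0.0706) and rho = -0.76 (permutation p = 0.00868, adjusted p = 0.0868), and r was -0.63 without the 2 farthest libraries and passed without HF-HI replicate 10 (r = -0.82, adjusted p = 0.0381 from the permutation test). The decarboxylase genes Gad1 and Gad2 had r = 0.67 in sham (permutation p = 0.0369, adjusted p = 0.246) with rho = 0.68 (permutation p = 0.0342, adjusted p = 0.218). In HF-HI they had r = 0.53 (permutation p = 0.0934, adjusted p = 0.347) with rho = 0.63 (permutation p = 0.0436, adjusted p = 0.218). In sham this r was 0.57 without the 2 libraries farthest from the median of Gad1, and 0.87 and past the threshold without replicate 5 (adjusted p = 0.0305 from the permutation test). Over the 20 correlations, r ranged from -0.91 to 0.67.

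Marker means of other cell types and technical properties of the libraries were set beside the 5 genes, as 60 correlations in all, a choice made after values had been seen. None of the 60 passed with p adjusted over them, and 11 had an unadjusted permutation p under 0.05. Within sham, Pvalb went with the oligodendrocyte marker mean (r = 0.81, permutation p = 0.00459, adjusted p = 0.0893) and Sst went against it (r = -0.72, permutation p = 0.0196, adjusted p = 0.147). The rho values were 0.78 and -0.76 (adjusted p = 0.137 and 0.148 from the permutation test), and without the 2 farthest libraries r was 0.54 and -0.50. In HF-HI the same relations had r = 0.31 for Pvalb (permutation p = 0.36) and r = -0.33 for Sst (permutation p = 0.322). Gad1 went with the oligodendrocyte mean in HF-HI at r = 0.80 (permutation p = 0.00598, adjusted p = 0.0893, rho = 0.54), and at r = 0.32 without the 2 farthest libraries. The oligodendrocyte markers, 11 tested of 15 listed with 3 higher and 0 lower as deposited, numbered 2 higher and 3 lower with the GC trend removed. Over the alternatives 0 to 5 were lower, and 0 to 3 with a library left out. As deposited they had mean deviations from -0.30 to 0.36 in sham and from -0.31 to 0.28 in HF-HI, and their defining gene Mbp, past the threshold, was at 14.07 in sham and 14.46 in HF-HI. With this mean as a covariate, an alternative added after seeing the data, the difference of Sst was 0.65 and that of Pvalb -0.085, on the same sides of the threshold as before. The GC slope of the sham libraries went with Sst (r = 0.81, permutation p = 0.00683, adjusted p = 0.0893, rho = 0.83) and against Pvalb (r = -0.78, permutation p = 0.00744, adjusted p = 0.0893, rho = -0.85). In HF-HI it had r = -0.073 with Sst (permutation p = 0.834) and, with the opposite sign, r = 0.48 with Pvalb (permutation p = 0.131). Their part in the relation of Pvalb and Sst was not tested.

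Markers of striatal projection neurons were set beside the wide spread of Gad2 in HF-HI. Of 20 listed striatal markers 14 were tested, 2 were higher and 2 lower, and 2 higher and 4 lower with the GC trend removed. Their mean deviation ran from -0.23 to 0.21 in sham and from -0.61 in HF-HI replicate 3 to 0.48 in replicate 4, and the group means differed by 0.020 (p = 0.853, two-sided permutation test). The defining dopamine receptor gene Drd1 was lower, at 9.55 ± 0.37 (SD, n = 11) with HF-HI against 9.90 ± 0.10 (SD, n = 10) without, and the adenosine receptor gene Adora2a was at 8.75 ± 0.20 (SD, n = 10) and 8.67 ± 0.37 (SD, n = 11), so both were measured in tissue labelled as cortex. Adora2a did not pass as deposited and was lower with the GC trend removed (-0.39, adjusted p = 0.00513 from limma). Past the threshold as deposited were also Rasd2 at 0.43, Foxp1 at 0.39 and Pde1b at -0.34 (adjusted p = 0.00124, 4.99e-06 and 0.00268 from limma). Gad2 correlated with the striatal mean in HF-HI, short of the threshold. There r was 0.73 (permutation p = 0.00984, adjusted p = 0.0984) and rho was 0.80 (permutation p = 0.00442, adjusted p = 0.0922), and r was 0.85 without the 2 farthest libraries. For Gad1, the other decarboxylase gene, r was 0.40 in HF-HI (permutation p = 0.226, adjusted p = 0.524, rho = 0.59). HF-HI replicate 4 held both the highest Gad2 and the highest striatal mean. With the striatal mean as a covariate the difference of Gad2 was -0.021 and that of Sst was 0.62. The part of striatal tissue in the spread of Gad2 was not tested.

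**Figure D5:**
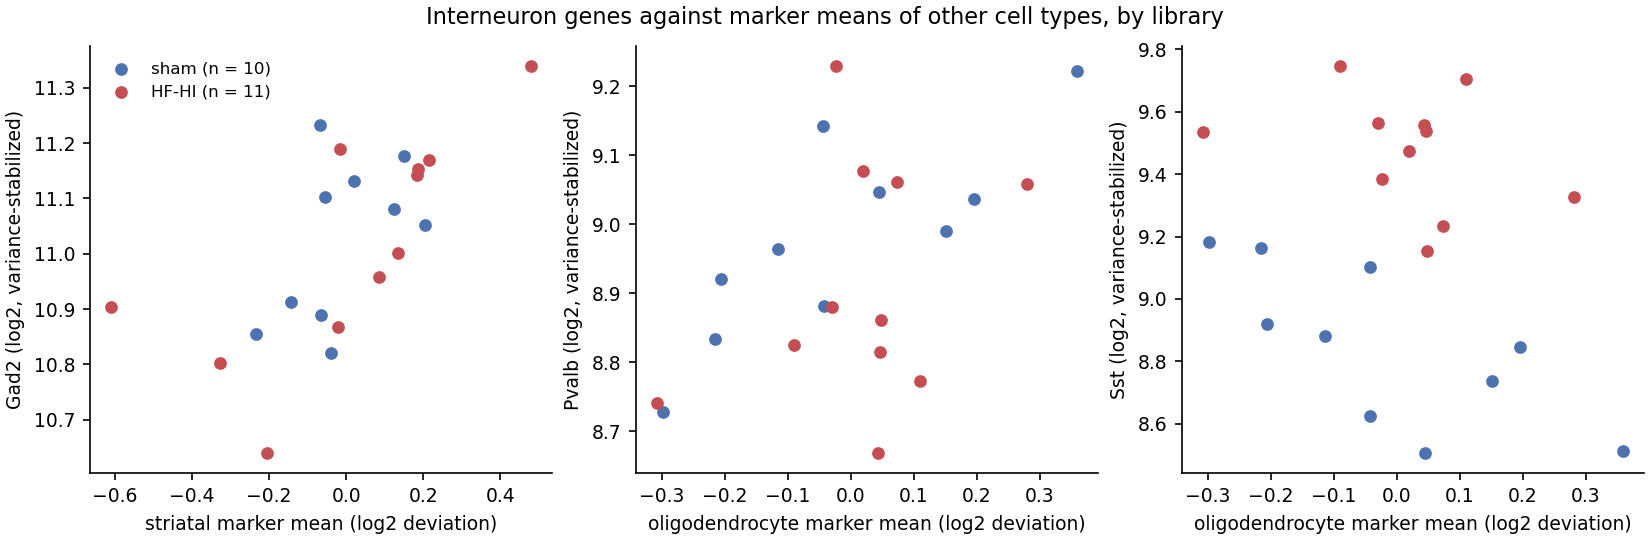
Gad2 against the mean deviation of 14 striatal markers, and Pvalb and Sst against the mean deviation of 11 oligodendrocyte markers, for each sham (blue) and HF-HI (red) library, all on a log2 scale. Gad2 ascends with the striatal mean in HF-HI (r = 0.73), and in sham Pvalb ascends (r = 0.81) and Sst descends (r = -0.72) with the oligodendrocyte mean.

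For each gene the 5 genes of the table with the most similar pattern were found, by the correlation of deviations from the group means over all 21 libraries. These correlations are descriptions over libraries that share their depth and GC slopes. For Gad2 the closest were Klhl13 (0.86), Slc32a1 (0.85), Tmcc2 (0.85), Vat1l (0.82) and Ap1s2 (0.81), so that the vesicular GABA transporter, the partner of the decarboxylases in GABAergic terminals, was second, with r = 0.83 inside sham and 0.88 inside HF-HI. After removal of the GC trend, Klhl13, Tmcc2, Vat1l and Ap1s2 were again among the 5 and Slc32a1 was not. For Gad1 they were Srebf1 (0.87), Sun2 (0.84), the perineuronal net gene Bcan (0.81), Lrtm2 (0.81) and Syngr3 (0.81), and no interneuron gene was among them.

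For Calb1 the closest genes were Lin7c (0.91), Rnf20 (0.87), Npm1 (0.83), Hnrnpr (0.82) and Cbx3 (0.82). For Pvalb they were Map3k5 (0.81), Ckmt1 (0.79), Mdh1 (0.78), Siah1a (0.77) and Pak1 (0.76). For Sst they were Jph3 (0.83), Cbarp (0.83), Fam120c (0.81), Ppp1r9b (0.80) and Tmem191c (0.79). All 5 of the last were higher in HF-HI, by 0.21 to 0.96 on the log2 scale, where 32.6% of all genes were higher. The group means had been taken out before the correlation, whereas the GC slopes, which differ between groups, had not. After removal of the GC trend, Jph3 and Fam120c were again among the 5 closest to Sst. The other 3 were then Lin7c, Luc7l and Lrrc7, whose differences as deposited were -0.084, -0.030 and 0.027 and did not pass, so that the 5 closest genes were not all higher.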

How the data were processed

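Cortical RNA-seq libraries of 10 sham and 11 HF-HI mice, grouped by their labels, were used. The authors removed ribosomal RNA, prepared stranded total RNA libraries, aligned reads to mm10 with STAR, counted them per transcript with eXpress and normalized them with DESeq2; versions are not given in the sources used here. The values the authors deposited are on a log2 scale after variance stabilization, which compresses differences of genes with few reads. All columns matched a library. Counts were not used here. Total depth is therefore unknown, and the spread between mice limits the precision.

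Symbols, positions, exon lengths and GC content came from GENCODE M21 (GRCm38, the assembly of mm10) and were found for 5539 genes. The test was limma 3.58.1 under R 4.3.3, in which lmFit was followed by eBayes with its trend option. It was two-sided, with Benjamini-Hochberg adjustment over all genes and a threshold of 0.05. In an alternative, a lowess fit (span 0.3) of values on GC content was subtracted from each library, and a biological difference tied to GC content would be lost with it. Correlations, permutation tests with 100000 resamples and figures were made in Python 3.11.15 with matplotlib 3.10.9, pandas 2.3.3, scipy 1.17.1 and numpy 2.4.6. The scripts were first tested on data with known answers.

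The interneuron genes and the gene lists were chosen with earlier results of these data known. All tested genes of the lists of GABA handling, subclass markers and transcription factors could be named, except that some results are not reported here. Of the other lists the defining markers and up to 4 genes past the threshold with the largest differences could be named, and for each interneuron gene the 5 genes of most similar pattern. Alternatives were a threshold of 0.1, the Wilcoxon test, eBayes without its trend, a minimum difference of 0.25, median centring, quantile normalization, the genes outside the lowest 25% of mean value, a replicate block, removal of GC and length trends, covariates for relative depth and striatal markers, and each library left out. The oligodendrocyte covariate, and leaving out libraries in the correlations and within-library differences, were added after seeing the data.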

Additional observations from a re-analysis of the deposited data

How the results depend on the processing

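The rise of Sst kept its direction and passed in all 14 alternatives and in all 21 fits with a library left out, and Pvalb stayed on its side of the threshold in every fit that gave a value (it was not tested among genes outside the lowest 25% of mean value). Gad1 passed with library medians centred (-0.15), GC and length trends removed (-0.14) and relative depth as a covariate (-0.14). Calb1 passed with medians centred (-0.19), quantile normalization (-0.18), the replicate block (-0.16) and at an adjusted p under 0.1 (-0.14), and without sham replicate 2, 3 or 8 or HF-HI replicate 9 or 11 (left out in turn, it lay between -0.17 and -0.12). The sign of Gad2 changed with the GC trend removed (0.032), with that and the replicate block (0.017) and with GC and length trends removed (0.015), and with sham replicate 2, 5 or 9 or HF-HI replicate 2, 3, 5 or 9 left out (range -0.043 to 0.027), never past the threshold. The number of lower interneuron genes, 0 as reported, was 2 with medians centred, 1 at an adjusted p under 0.1, with quantile normalization, the replicate block, GC and length trends removed or the depth covariate, and 0 to 1 with a library left out.

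A minimum absolute difference of 0.25 left 987 higher and 446 lower genes in the table, 3 higher and 1 lower genes of GABA handling, 0 lower subclass markers, 1 higher and 0 lower transcription factor, 4 higher and 0 lower fast-spiking partners and 0 lower genes of the inhibitory postsynapse. With the GC trend removed and the replicate block, 1 gene of GABA handling and 0 subclass markers were lower, 4 fast-spiking partners and 5 genes of the inhibitory postsynapse were higher. Lower subclass markers, 1 as reported, numbered 3 with medians centred, 2 at an adjusted p under 0.1, with quantile normalization, the replicate block, the GC trend removed or GC and length trends removed, and 1 to 2 with a library left out. Higher transcription factors numbered 1 with medians centred, and 0 were lower with the GC trend removed (alone, with the block or with the length trend) or among genes outside the lowest 25% of mean value, where 3 fast-spiking partners were lower. Over all genes, 1448 were higher and 2376 lower with medians centred, 1547 and 2242 with quantile normalization, against 1810 and 1864 as reported.

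Genes not past the threshold changed sign as follows. Abat was at -0.032 with medians centred, -0.014 with the GC trend removed, -0.020 with that and the replicate block, -0.044 with GC and length trends removed, -0.029 with the depth covariate and -0.0015 to 0.047 with a library left out. Aldh5a1 was at -0.011 with medians centred, -0.013 with quantile normalization, -0.0031 with GC and length trends removed and -2.5e-04 with the depth covariate. Cck was at 0.0025 with the replicate block, 0.0058 with the depth covariate, 1.9e-04 with the oligodendrocyte covariate and -0.080 to 0.0062 with a library left out. Penk was at -0.051 with the GC trend removed and -0.061 with the block added. Nr2f1 was at -0.058, -0.093 with the block added and -0.057 with GC and length trends removed.

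The correlation of Pvalb and Sst in sham was -0.88 without the 2 farthest libraries and missed the threshold there (adjusted p = 0.0946, permutation test), which left 0 pairs past it in sham. With a library left out, 1 to 2 pairs passed in sham (2 without sham replicate 5) and 0 to 1 in HF-HI (1 without HF-HI replicate 10, or without sham replicate 5 because p-values were adjusted over both groups). The within-library difference of Gad2 and Sst moved from -0.64 to -0.39 with the GC trend removed. The cause of these changes was not tested. The replicate numbers do not pair the mice by the labels: the deviations of same-numbered libraries correlated between -0.31 and 0.36, over 0.1 in 4 of 10 pairs, and 0 sham libraries correlated best with their own number. With the replicate block, 1758 genes were lower over the table, and apart from Calb1 no interneuron gene changed its call, with differences of 0.62 for Sst, -0.11 for Gad1, -0.028 for Gad2 and -0.045 for Pvalb. Depth limits the low genes: by mean value Pvalb is at percentile 20.6 and Sst at percentile 29.8 of the table, where the variance-stabilized scale understates ratios.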

Other observations

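Markers of cell types not described above were also examined. Of 20 listed thalamic, hypothalamic and hippocampal markers 4 were tested, 1 was higher and 0 were lower. Of 14 microglia markers 2 were tested, of which 1 was higher and 1 lower, and of 14 vascular and choroid plexus markers 6 were tested, of which 1 was higher and 1 lower. The mean deviation of the vascular and choroid plexus markers ran from -0.43 to 0.64 in sham and from -0.25 to 0.93 in HF-HI. In HF-HI, Pvalb went with relative depth (r = 0.70, permutation p = 0.0187, adjusted p = 0.147, rho = 0.75, permutation p = 0.0114, adjusted p = 0.137), and r was 0.49 without the 2 farthest libraries.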
